A study of Arabidopsis thaliana with 6 samples.

Results

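Glucosinolates are sulfur-rich defence compounds of Arabidopsis thaliana and its relatives, and 48 genes for their synthesis, regulation, transport and breakdown were followed here in leaves of an aquaporin mutant. The genes were taken by their AGI locus codes from a table of 28387 genes, in which 46 of the 48 were found. The other two, AOP2 (AT4G03060) and ESM1 (AT3G14210), were not analysed here. The 46 fell into 15 aliphatic genes, 13 indole genes, 7 genes called shared, 2 transporter genes and 9 breakdown genes. The shared group covers sulfur and sugar steps, and its genes GSTU20 and GSTF11 are linked to the aliphatic branch.

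The mutant line was atpip1;2-1, in which a T-DNA is inserted in the plasma membrane aquaporin gene PIP1;2. It was set against the wild type N-60000, whose accession the labels do not name. Leaves were taken at 3 weeks of age from greenhouse plants, which had no treatment in either line. There were 3 Affymetrix arrays for atpip1;2-1 and 3 for the wild type, each from RNA of 5 plants, so that 15 plants stood for each line. The mutant is a single insertion line, and other alleles were not analysed here. The design asks which transcripts differ between the lines.

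Values are log2 expression values, and all differences are atpip1;2-1 minus wild type on the log2 scale. Array medians lay between 3.78 and 3.84, and correlations between arrays over genes lay between 0.975 and 0.989. PIP1;2 (AT2G45960) had 5.16, 5.51 and 5.18 on the mutant arrays, against 8.73, 9.14 and 8.74 on the wild type arrays, a difference of -3.59 (SE 0.18, limma adjusted p = 0.000148). The position of its probes with respect to the T-DNA is not known here. All 5 mesophyll markers stood above the middle of all genes by mean level, and none of the 5 root markers or the 5 flower and apex markers did.

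Plants build glucosinolates from amino acids. A cytochrome P450 of the CYP79 family makes an aldoxime, a CYP83 enzyme activates it, sulfur is added from glutathione, and a glucosyltransferase and a sulfotransferase complete the core. The aliphatic branch starts from methionine whose side chain has been lengthened, and is switched on by MYB28, MYB29 and MYB76. The indole branch starts from tryptophan and is switched on by MYB34, MYB51 and MYB122. When tissue is crushed, myrosinases cut off the glucose, and specifier proteins direct the product towards nitriles instead of isothiocyanates.

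The genes for the aliphatic core, their regulators MYB28 and MYB29 and some of the oxygenases that modify the side chain had higher values in the mutant, while MYB51 and CYP81F2 of the indole branch had lower ones. The myrosinase genes TGG1, TGG2 and PEN2 differed from the wild type by 0.12, 0.11 and -0.13. None of the 46 genes passed an adjusted p of 0.05 in limma's test over all 28387 genes, where 0.342% of all genes passed. A total of 12 members had an unadjusted p under 0.05, 10 higher and 2 lower in the mutant. That is 21.7% of the members higher and 4.35% lower, where 5.92% of all genes were higher and 6.32% lower at the same limit. The 3 mutant arrays lay above the 3 wild type arrays in 13 members and below them in 3, which is 28.3% and 6.52% of the members, where 9.30% and 9.24% of all genes did so. Either way, 34.8% of the members and 18.5% of all genes had lines that did not overlap. In the mean, 33 members were higher and 13 lower in the mutant, where 48.4% of all genes were higher and 51.6% lower. With 3 arrays against 3, an exact permutation test of a single gene cannot give a two-sided p below 0.1.

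Of the 10 members that were higher at an unadjusted p under 0.05, 8 belonged to the aliphatic branch. Of the 15 aliphatic genes, 8 were higher at an unadjusted p under 0.05 and 0 lower, with a median log2 difference of 0.44. Of the 13 indole genes, 0 were higher and 2 lower at that limit, with a median of 0.10. Of the 9 breakdown genes, 1 was higher and 0 lower, with a median of 0.25. Of the 7 shared genes, 1 was higher, the aliphatic-linked GSTU20, and 0 lower, with a median of 0.13. In either direction, 53.3% of the aliphatic, 15.4% of the indole, 11.1% of the breakdown and 14.3% of the shared genes reached that limit. Of all genes, 12.2% reached it, 5.92% higher and 6.32% lower. The median of all genes was -0.01. The indole median was 0.01 without mutant replicate 1, 0.15 without mutant replicate 2 and 0.17 without wild type replicate 3. The breakdown median was 0.16 without mutant replicate 3, 0.17 without wild type replicate 1 and 0.12 without wild type replicate 2. The shared median was 0.26 without mutant replicate 2 and 0.21 without wild type replicate 2. The genes were grouped with earlier results of these arrays known, so the counts are descriptions and no test was made between the groups.

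**Figure D1:**
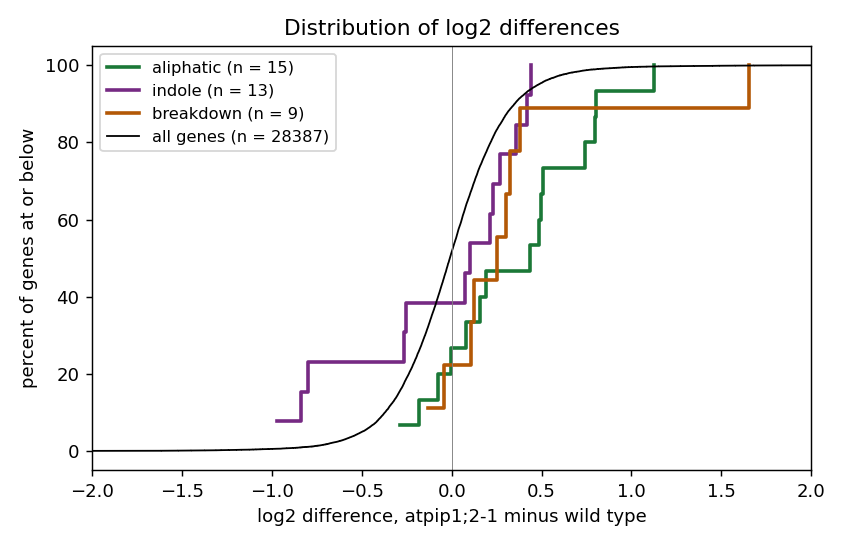
Cumulative distribution of the log2 difference (atpip1;2-1 minus wild type, horizontal axis, with the tails of all genes running past its ends) for the 15 aliphatic, 13 indole and 9 breakdown genes and for all 28387 genes, with the percent of genes at or below each value on the vertical axis. The aliphatic curve crosses its middle at 0.44, the indole curve at 0.10 and the curve of all genes at -0.01, and the lowest 3 steps of the indole curve are MYB51, CYP81F2 and IGMT2.

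Values of each group can also be read array by array, as the median over its genes of the log2 value minus the wild type mean. The aliphatic genes gave 0.39, 0.46 and 0.34 on mutant arrays 1, 2 and 3, against 0.03, 0.01 and -0.02 on wild type arrays 1, 2 and 3. The breakdown genes gave 0.17, 0.15 and 0.18 on the mutant arrays, against 0.02, -0.05 and -0.06 on the wild type arrays. The 3 mutant arrays thus stood above the wild type arrays for both groups. The 6 aliphatic side-chain enzymes gave -0.02, 0.03 and 0.29 in the mutant, against 0.13, 0.16 and -0.13 in the wild type. Their lines overlapped, with a median log2 difference of 0.04, 3 higher and 3 lower. Each gene is set against its own wild type mean, so the wild type medians are held near it by construction. A separation of the lines is therefore easier to reach here, also in the contrasts below, and it was not tested.

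The indole genes gave 0.28, -0.11 and 0.03 on the mutant arrays, against -0.08, 0.02 and 0.02 on the wild type arrays, and here the lines overlapped. The 4 indole core enzymes alone gave 0.39, 0.14 and 0.16 on the mutant arrays, against -0.01, 0.05 and -0.05 on the wild type. Their medians did not overlap between the lines. The aliphatic median minus the indole median was 0.10, 0.57 and 0.31 on the mutant arrays, against 0.11, -0.01 and -0.04 on the wild type arrays. Mutant array 1 therefore fell within the wild type range for this contrast. The aliphatic core minus the indole core was 0.059, 0.40 and 0.41 in the mutant, against 0.070, -0.045 and 0.033 in the wild type. Mutant array 1 fell within the wild type range there too. The aliphatic median minus the breakdown median was 0.22, 0.31 and 0.16 on the mutant arrays, against 0.01, 0.07 and 0.04 on the wild type arrays, with no overlap.

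**Figure D2:**
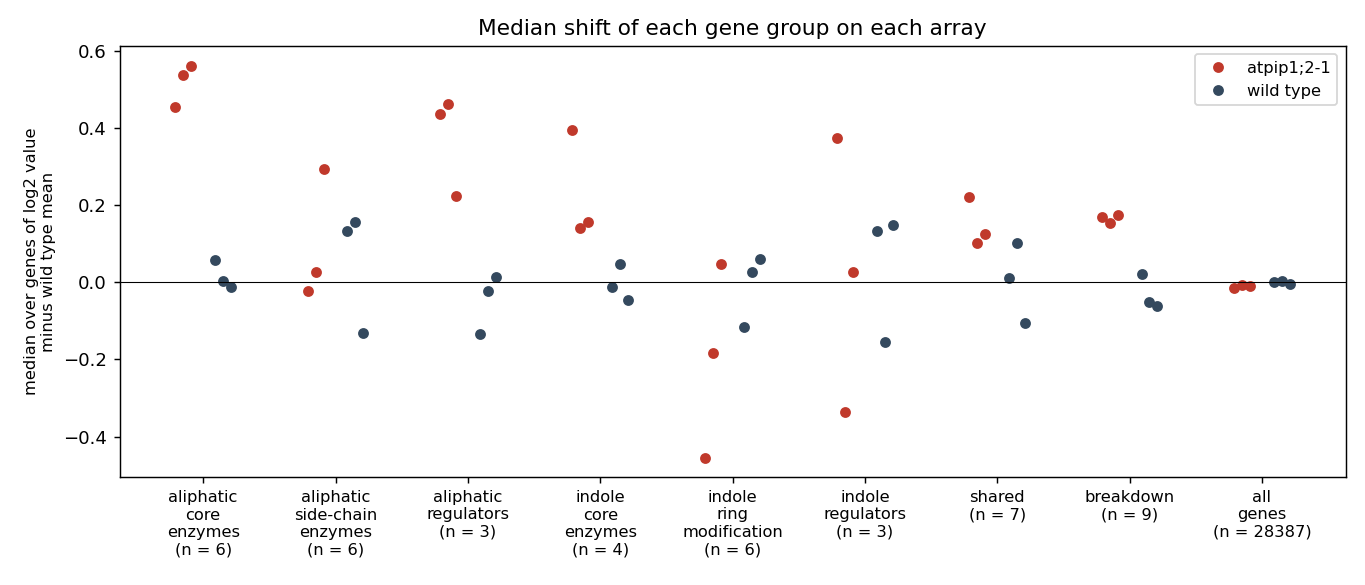
Median over the genes of each group of the log2 value minus the gene's wild type mean (vertical axis), for each of the 3 atpip1;2-1 arrays (red, left in each group) and the 3 wild type arrays (dark blue, right). The mutant points of the aliphatic core lie between 0.45 and 0.56, all above its wild type points, while the mutant points of the indole regulators spread from -0.34 to 0.38.

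The first enzymes of the aliphatic core had higher values in the mutant. CYP79F1 (AT1G16410) and CYP79F2 (AT1G16400) make aldoximes from chain-elongated methionine, CYP79F2 mainly from long chains. CYP79F1 had 5.13, 5.57 and 5.92 in the mutant, against 4.66, 4.79 and 4.76 in the wild type, a difference of 0.80 (SE 0.21, limma adjusted p = 0.178). CYP79F2 had 5.62, 5.15 and 5.20 in the mutant, against 4.61, 4.60 and 4.54 in the wild type, a difference of 0.74 (SE 0.18, adjusted p = 0.142). Neither pair of groups overlapped, but mutant array 1 was the lowest of the 3 for CYP79F1 and the highest for CYP79F2. The genes are related neighbours, and whether the probes tell them apart was not tested, so their separate values are uncertain.

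CYP83A1 (AT4G13770), which turns the aliphatic aldoximes into the activated form that takes up sulfur, had 10.15, 10.29 and 10.44 in the mutant, against 9.71, 9.54 and 9.25 in the wild type. The means were 10.29 ± 0.15 in the mutant and 9.50 ± 0.23 in the wild type (SD, n = 3 each), a 1.74-fold difference with an adjusted p of 0.123 from limma. All mutant arrays were above all wild type arrays, with 0.44 between the nearest. Over 14 alternative fits its adjusted p ran between 0.00703 and 0.310 and was under 0.05 in 1, in which limma's spread followed the expression level and resisted outlying genes. Without 1 array it was at least 0.209.

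The later steps of the core were less uniform. SOT17 (AT1G18590), a sulfotransferase of the last core step, had 5.13, 5.13 and 5.12 in the mutant, against 4.70, 4.51 and 4.63 in the wild type, a difference of 0.51 (SE 0.15, limma adjusted p = 0.228). The related SOT18 (AT1G74090), which carries out the same step, had a difference of 0.08 with a 95% interval from -0.32 to 0.48, and its groups overlapped. The glucosyltransferase gene UGT74C1 (AT2G31790) had 0.19 with an interval from -0.17 to 0.56. All 6 core genes were higher in the mean, where 48.4% of all genes were. The mutant arrays all lay above the wild type arrays in 4 of the 6, where 9.30% of all genes did so.

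Among the enzymes that modify the side chain, FMOGS-OX3 (AT1G62560) stood highest. The FMOGS-OX genes encode flavin monooxygenases that oxidise the sulfur atom at the end of the side chain. FMOGS-OX3 had 6.65, 6.89 and 6.67 in the mutant, against 5.74, 5.96 and 5.15 in the wild type. The difference was 1.12 (SE 0.22, limma adjusted p = 0.0870), or 2.18-fold. Wild type array 3 was the lowest of the 6, and the nearest arrays of the lines were 0.70 apart, against a range of 0.24 in the mutant and 0.81 in the wild type. Over 14 alternative fits the adjusted p ran between 0.0146 and 0.337. It was under 0.05 in 2, with the spread tied to the level and without the dimmest 50% of genes, and in 0 of the 6 that left out 1 array, where the lowest was 0.123.

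FMOGS-OX5 (AT1G12140), which acts mainly on long side chains, had 5.86, 6.19 and 6.25 in the mutant, against 5.75, 5.48 and 5.59 in the wild type, a difference of 0.49 (SE 0.17, limma adjusted p = 0.304). The lowest mutant array stood only 0.10 above the highest wild type array. FMOGS-OX1 (AT1G65860), FMOGS-OX2 (AT1G62540) and FMOGS-OX4 (AT1G62570) had differences of 0.16, -0.18 and -0.08, and their groups overlapped. AOP3 (AT4G03050), for a dioxygenase that makes hydroxyalkyl glucosinolates and is little expressed in leaves of the accession Columbia, had -0.29 and lay among the dimmest 25% of genes by mean level.

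The regulator genes MYB28 and MYB29 had higher values in all mutant arrays. MYB28 (AT5G61420), the main activator of the aliphatic branch, had 9.15, 8.85 and 8.61 in the mutant, against 8.25, 8.55 and 8.35 in the wild type, a difference of 0.48 (SE 0.19, limma adjusted p = 0.342). MYB29 (AT5G07690), which acts beside it, had 8.61, 8.71 and 8.51 in the mutant, against 8.18, 8.15 and 8.19 in the wild type, a difference of 0.44 (SE 0.15, adjusted p = 0.295). MYB28 varied more within the mutant than MYB29, and its lowest mutant array stood just 0.06 above its highest wild type array. MYB76 (AT5G07700) had a difference of 0.00 with a 95% interval from -0.76 to 0.75.

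**Figure D3:**
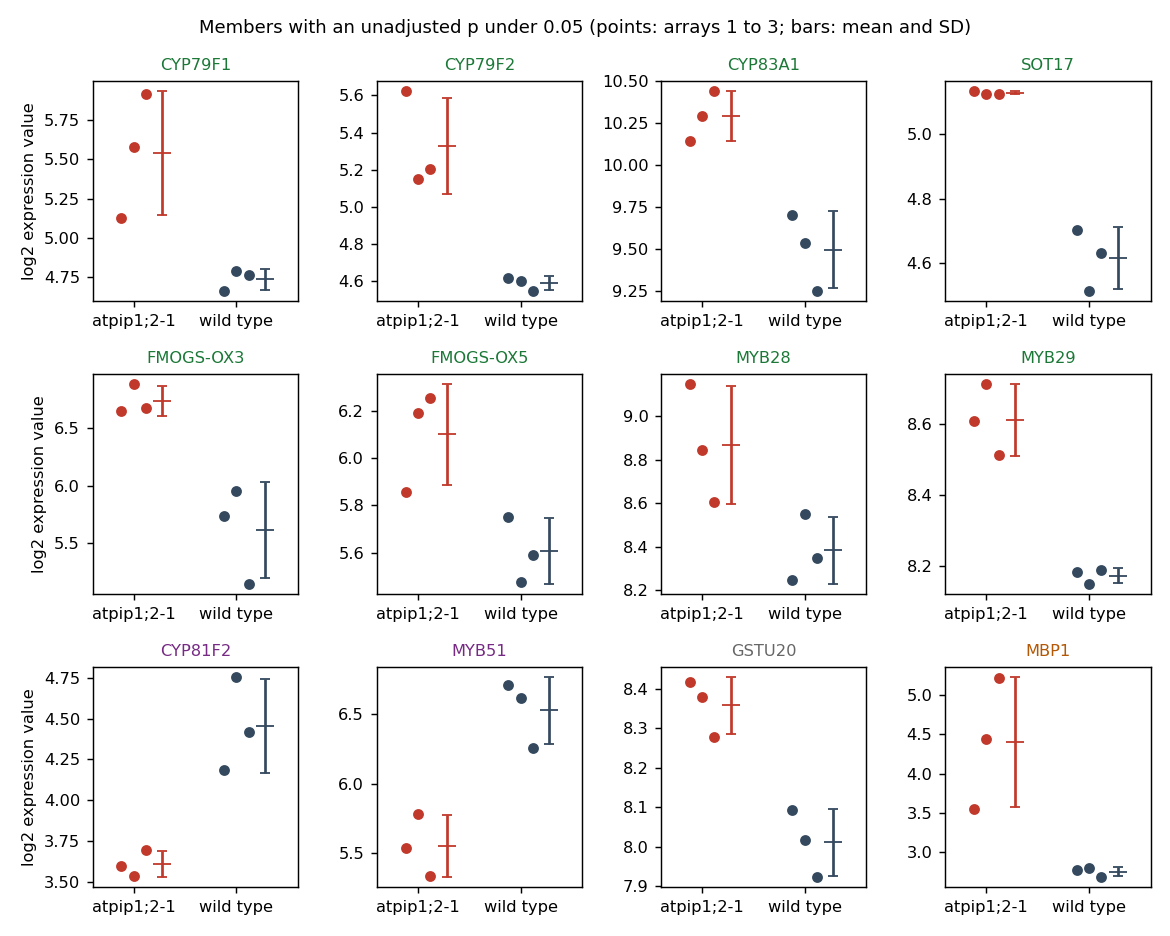
Log2 expression values (vertical axes, a separate range in each panel) of the 12 members with an unadjusted p under 0.05, on the 3 atpip1;2-1 arrays (red, left) and the 3 wild type arrays (dark blue, right), with mean and SD beside the points. In all 12 the lines do not overlap, CYP81F2 and MYB51 being lower in the mutant and the other 10 higher, and MBP1 has the widest spread, from 3.56 to 5.21 in the mutant.

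The core enzymes of the indole branch were slightly higher in the mean, with overlapping groups. CYP79B2 (AT4G39950) and CYP79B3 (AT2G22330) make the aldoxime from tryptophan, which also feeds camalexin and auxin. Their differences were 0.07 and 0.27, with 95% intervals from -0.38 to 0.52 and from -0.21 to 0.75. CYP79B3 had 0.070 without mutant replicate 1 and 0.48 without mutant replicate 2. CYP83B1 (AT4G31500), which takes that aldoxime into glucosinolates, had 8.00, 7.52 and 8.02 in the mutant, against 7.56, 7.27 and 7.64 in the wild type, a difference of 0.36 (SE 0.19, limma adjusted p = 0.504). Mutant array 2 lay within the wild type range. The sulfotransferase gene SOT16 (AT1G74100) had 0.23 with an interval from -0.14 to 0.60. The intervals of all 4 genes include 0 and also a difference of the size seen in SOT17.

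MYB51 had lower values in the mutant. MYB51 (AT1G18570), an activator of the indole branch in shoots, had 5.54, 5.78 and 5.34 in the mutant, against 6.71, 6.62 and 6.25 in the wild type. The means were 5.55 ± 0.22 in the mutant and 6.53 ± 0.24 in the wild type (SD, n = 3 each). The difference was -0.97 (SE 0.19, limma adjusted p = 0.0872), with a wild type level 1.96 times that of the mutant. Over 14 alternative fits the adjusted p ran between 0.0175 and 0.293. It was under 0.05 in 3, with the spread tied to the level, without the dimmest 50% of genes and with array weights, and in 0 of the 6 that left out 1 array, where the lowest was 0.0842. MYB34 (AT5G60890), another activator of the branch, had 0.10 and MYB122 (AT1G74080) had 0.21, both with overlapping groups, and MYB122 was among the dimmest 25% of genes. At the wider limit of an adjusted p under 0.10, MYB51 and FMOGS-OX3 were the members that passed, where 0.673% of all genes did.

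Of the 6 genes that modify the indole ring, 2 were higher and 4 lower in the mean, where 48.4% of all genes were higher and 51.6% lower. CYP81F2 (AT5G57220), which hydroxylates the ring and is known for its part in defence against microbes, had 3.60, 3.54 and 3.70 in the mutant, against 4.19, 4.75 and 4.42 in the wild type. Its difference was -0.84 (SE 0.18, limma adjusted p = 0.116), and the wild type level was 1.79 times that of the mutant. CYP81F3 (AT4G37400), a related enzyme, had -0.27, with mutant arrays all below the wild type arrays by a small gap. CYP81F4 (AT4G37410), which acts on the nitrogen of the ring, had 0.44, with mutant arrays all above, and 0.24 without mutant replicate 1. CYP81F1 (AT4G37430) had -0.26 with overlapping groups.

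IGMT1 (AT1G21100) and IGMT2 (AT1G21120), for methyltransferases that act after the CYP81F enzymes, had 0.42 and -0.80. Their values were dim, from 1.40 to 3.11 over both genes and all arrays. The groups of both genes overlapped. The interval of IGMT2 ran from -1.63 to 0.04.

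Of the 7 genes for shared steps, which add sulfur and glucose, only GSTU20 had an unadjusted p under 0.05. That is 14.3% of the group, where 12.2% of all genes had such a p in either direction. GSTU20 (AT1G78370), a glutathione transferase gene linked to the aliphatic branch, had 8.42, 8.38 and 8.28 in the mutant, against 8.09, 8.02 and 7.92 in the wild type, a difference of 0.35 (SE 0.15, limma adjusted p = 0.398). Its groups did not overlap, and the table per probe set gave 0.47 (SE 0.13). GSTF11 (AT3G03190), also linked to the aliphatic branch, had -0.04, and GSTF9 (AT2G30860) and GSTF10 (AT2G30870) had 0.28 and -0.05. GGP1 (AT4G30530), which trims the glutathione conjugate, had 0.39, the C-S lyase gene SUR1 (AT2G20610) 0.10 and the glucosyltransferase gene UGT74B1 (AT1G24100) 0.13. In these 6 genes the groups overlapped.

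The transporter genes GTR1 (AT3G47960) and GTR2 (AT5G62680), whose proteins load glucosinolates into cells along the veins, had differences of 0.26 and 0.24. GTR2 had 6.97, 7.10 and 6.26 in the mutant, against 6.54, 6.70 and 6.36 in the wild type, and mutant array 3 was the lowest of the 6. In the table per probe set the differences were -0.09 for GTR1 and -0.06 for GTR2. No direction is therefore given for the transporters.

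The main leaf myrosinase genes TGG1 (AT5G26000) and TGG2 (AT5G25980) were close to the wild type. TGG1 had 11.36, 11.12 and 11.17 in the mutant, against 11.11, 11.09 and 11.08 in the wild type, a difference of 0.12 with a 95% interval from -0.22 to 0.47. TGG2 had 0.11 with an interval from -0.22 to 0.44. In both the mutant arrays stood above the wild type arrays, by at most 0.01 between the nearest arrays. After a further quantile normalization, TGG1 had -0.0060 and TGG2 had 0.0024. TGG1 had 0.049 without mutant replicate 1. PEN2 (AT2G44490), an atypical myrosinase that acts on indole glucosinolates during pathogen attack, had -0.13 with overlapping groups.

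The specifier genes NSP1 (AT3G16400) and NSP5 (AT5G48180), which favour nitriles, and ESP (AT1G54040), the epithiospecifier gene, had 0.38, 0.30 and 0.25. NSP5 had 4.81, 4.93 and 5.30 in the mutant, against 4.97, 4.56 and 4.62 in the wild type, and the groups of all 3 genes overlapped. NSP1 had 0.17 without wild type replicate 1 and 0.67 without wild type replicate 3, and NSP5 had 0.16 without mutant replicate 3. MVP1 (AT1G54030), a gene of the GDSL lipase family related to myrosinase-associated proteins, had -0.04.

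MBP1 had the highest difference of the 46 members and the widest spread among the mutant arrays. MBP1 (AT1G52040) and MBP2 (AT1G52030) encode myrosinase-binding proteins of the jacalin lectin family. MBP1 had 3.56, 4.44 and 5.21 in the mutant, against 2.77, 2.79 and 2.68 in the wild type. The means were 4.40 ± 0.83 in the mutant and 2.75 ± 0.06 in the wild type (SD, n = 3 each), a difference of 1.66 (SE 0.34, limma adjusted p = 0.106). The wild type level was dim, as the 5 root markers had wild type means from 1.84 to 2.92. By mean level MBP1 lay below the middle of all genes, so the fit without the dimmest 50% of genes does not hold it. Over 13 alternative fits the adjusted p ran between 0.0302 and 0.404. It was under 0.05 in 2, with the spread tied to the level and without mutant replicate 1, the lowest mutant array (0.0363), and it was between 0.198 and 0.259 without each other array. MBP2 had 0.32, with overlapping groups.

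**Figure D4:**
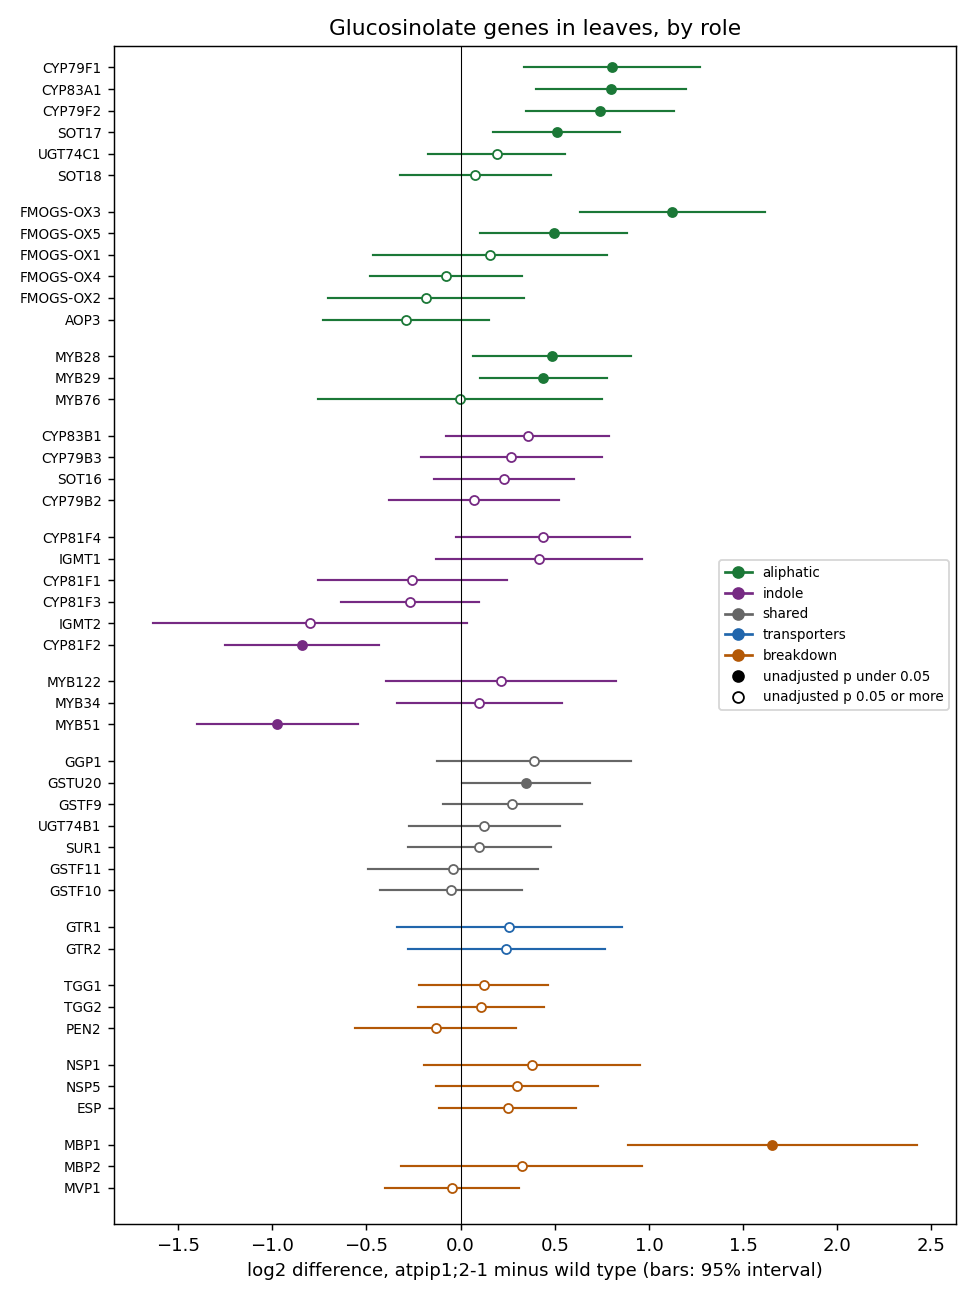
Log2 difference (atpip1;2-1 minus wild type, horizontal axis) with its 95% interval for the 46 members, in blocks by role and coloured by group. Filled points mark the 12 members with an unadjusted p under 0.05: 8 aliphatic (green), 2 indole (purple), 1 shared (grey) and 1 breakdown gene (orange).

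The 12 members with an unadjusted p under 0.05 did not all hold equally when 1 array was left out. A total of 8 stayed under 0.05 without each array in turn: CYP79F1, CYP79F2, CYP83A1, SOT17, FMOGS-OX3, CYP81F2, MYB51 and MBP1. MYB29 did so in 5 of 6 such fits, FMOGS-OX5 in 3, MYB28 in 2 and GSTU20 in 1. The highest p of MYB28 in these fits was 0.114 and that of GSTU20 was 0.115. These fits reuse the arrays on which the 12 were picked, so they give no separate support. The share of all genes that stay under 0.05 in this way is not given here.

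Some members are neighbours in the gene order of the RefSeq assembly TAIR10.1, and several such pairs had unlike values. FMOGS-OX3 (1.12) lies between FMOGS-OX2 (-0.18) and FMOGS-OX4 (-0.08). MYB29 (0.44) is next to MYB76 (0.00), and MBP1 (1.66) next to MBP2 (0.32). CYP81F4 (0.44) lies between CYP81F3 (-0.27) and CYP81F1 (-0.26), with 1 gene to each side between them. MYB51 (-0.97) and SOT17 (0.51) have 1 gene between them. CYP79F1 and CYP79F2 had like values, 0.80 and 0.74, and so had SOT18 (0.08) and SOT16 (0.23). Whether the probes tell related genes apart, such as IGMT1 and IGMT2 or MBP1 and MBP2, was not tested. The differences between neighbours were not tested.

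**Figure D5:**
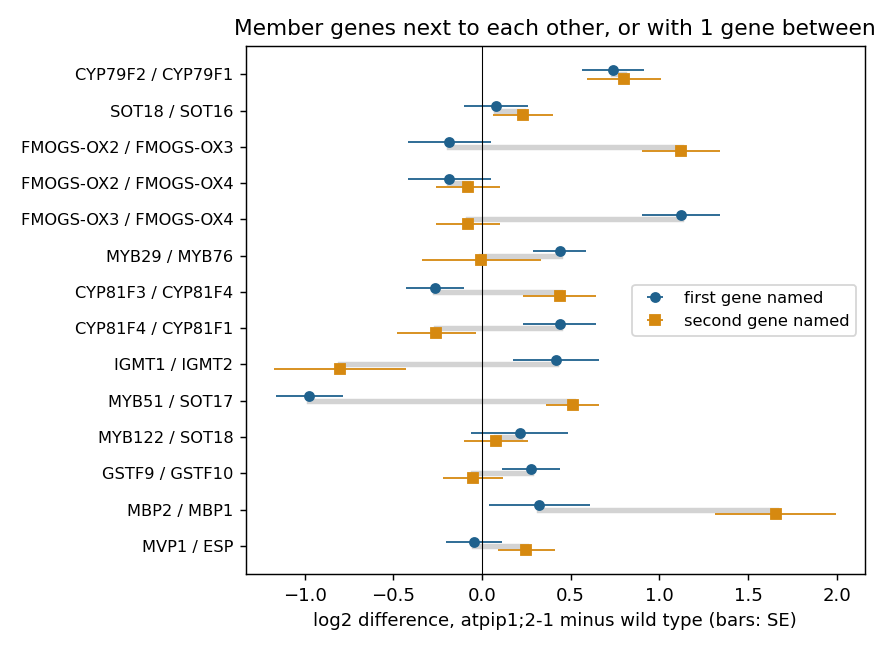
Log2 differences (atpip1;2-1 minus wild type, horizontal axis, bars SE) of members that are neighbours or have 1 gene between them in the order of protein-coding genes, the first gene named as a blue circle and the second as an orange square, joined by a grey line. CYP79F2 and CYP79F1 lie together at 0.74 and 0.80, while FMOGS-OX3 at 1.12 stands apart from both of its neighbours.

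Other genes of the pathway were read from lists that hold no member. All 9 genes of methionine chain elongation, which prepare the precursor of the aliphatic branch, were higher in the mean, 7 at an unadjusted p under 0.05, where 48.4% of all genes were higher in the mean and 5.92% higher at that limit. MAM1 (AT5G23010), for the first enzyme of that elongation cycle, rose and was the only gene of the 44 in these lists that passed over all genes in limma. MAM1 had 8.86, 8.77 and 8.61 in the mutant, against 7.72, 7.73 and 7.79 in the wild type, a difference of 1.00 (adjusted p = 0.0317). The call rested on all 6 arrays: without any 1 of them the difference stayed between 0.94 and 1.07, with adjusted p values between 0.0818 and 0.140. Those p values were 0.0896 with the replicate number as a block and 0.139 without moderation of the spread. Of the 14 further synthesis and transport genes, 7 were higher and 7 lower in the mean, with 3 higher and 1 lower at an unadjusted p under 0.05, where 5.92% of all genes were higher and 6.32% lower. The smallest p values belonged to APK1 (AT2G14750) and IGMT4 (AT1G21130). APK1, whose enzyme prepares activated sulfate for the sulfotransferases, had a difference of 0.55 (limma adjusted p = 0.287). IGMT4 had a difference of 0.51 (limma adjusted p = 0.345), with overlapping groups.

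Of 8 further regulators, MYC2 (AT1G32640), the jasmonate-responsive partner of these MYB factors, had 4.59, 4.80 and 5.27 in the mutant, against 4.14, 4.49 and 4.12 in the wild type, a difference of 0.64 (SE 0.21, limma adjusted p = 0.275). MYB115 (AT5G40360) had 0.50 at a dim level. Both were higher at an unadjusted p under 0.05, which is 25% of the list, where 5.92% of all genes were. The other 6 regulators had an unadjusted p above 0.05. Of 10 further breakdown genes, 6 were higher and 4 lower in the mean, with a median of 0.10. The nitrilase gene NIT1 (AT3G44310) had 0.49 and was the only 1 of them with an unadjusted p under 0.05. That is 10% of the list, where 5.92% of all genes were higher at that limit. NSP4 (AT3G16410) had 0.40 (limma adjusted p = 0.433), with the nearest arrays of the lines 0.0092 apart. All 3 camalexin genes, which branch from the same indole aldoxime, were lower in the mean, where 51.6% of all genes were. CYP71A12 (AT2G30750) had -0.48 and CYP71A13 (AT2G30770) had -0.38. All 3 lay below the middle of all genes by mean level.

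RNA came from whole leaf material, where a higher share of a cell type and more RNA per cell cannot be told apart. The 6 guard cell and myrosin cell markers, among them FAMA, a regulator of the cells that store myrosinase, summed to between 325 and 358 on the linear scale in the mutant and between 268 and 350 in the wild type, and 0 of them had an unadjusted p under 0.05. The 6 vascular markers summed to between 711 and 864 in the mutant and between 550 and 594 in the wild type. Such sums weigh bright genes most, and the median log2 difference of the list was 0.14, with 4 higher and 2 lower in the mean. SWEET11, a sucrose exporter of phloem parenchyma, had 0.64 among them and XCP1, a xylem protease, -0.41. The 5 epidermis markers summed to between 956 and 1027 in the mutant and between 838 and 909 in the wild type, but the median log2 difference of that list was 0.05, with CER6 at 0.75 and PDF1 at -0.94. No marker was at 0 on any array, which says nothing of detection, since RMA gives no detection call. The part of the vascular and epidermal markers in the values of the aliphatic genes was not tested.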

How the data were processed

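Leaf RNA of 3 atpip1;2-1 and 3 wild type samples was measured on Affymetrix arrays, which the labels call biological replicates. The authors deposited log2 values per AGI code. RMA and Partek are named, without versions, per the submitters' processing notes. Probe grouping and genome build were not stated there, so no coordinates are printed. RMA gives no detection call, and dim genes stayed in. Precision is limited by the 6 arrays.

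limma 3.58.1 in R 4.3.3 was fitted to all 28387 genes (lmFit and eBayes, two-sided, without covariates). P-values were adjusted by Benjamini-Hochberg over the whole table, and the threshold was 0.05. The code was tested on simulated data. Members were found by locus code, and gene order came from a RefSeq table of TAIR10.1, in which AT4G37430 (CYP81F1 here) is called CYP91A2. Members and lists were chosen with earlier results of these data known. Values per array are given, in each list, for up to 4 members with an unadjusted p under 0.05, or else for the 1 with the smallest p. From other pathway lists, genes past the threshold or else the 2 with the smallest p were named. Markers were named after their values were seen.

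The second deposited table, per probe set, has no stated scale and was taken as log2 from its range and its correlations of 0.960 to 0.966 with the first. It named 16411 genes, 6 of them members. A total of 16 alternatives were tried: leaving out each array, leaving out the dimmest 25% or 50% of genes, a variance trend with robust fitting, array weights, quantile normalization, equal array medians, an unmoderated fit, a replicate block, a threshold of 0.10 and the probe set table. Figures were drawn with matplotlib 3.10.9.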

Additional observations from a re-analysis of the deposited data

How the results depend on the processing

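Of 97 genes past the threshold, the number became 196 without the dimmest 50% of genes, 375 with a variance trend and robust fitting, 0 without moderation of the spread (unadjusted p under 0.05 in 3476 genes with limma's moderation), 191 at an adjusted p under 0.10 and 31 in the table per probe set. Leaving out 1 array gave 14 to 48. Members past the threshold, 0 at first, numbered 2 without the dimmest 50% of genes, 4 with the variance trend, 1 with array weights, 2 at an adjusted p under 0.10 and 0 to 1 without 1 array. The table per probe set, which held 6 members, had 1 higher and 0 lower at an unadjusted p under 0.05, and too few per group for medians. Members at that limit numbered 8 to 11 higher and 2 to 3 lower without 1 array. The aliphatic median was 0.49 without the dimmest 50% of genes, 0.37 after quantile normalization and 0.34 to 0.45 without 1 array. The breakdown median was 0.12 without the dimmest 50% of genes and 0.12 to 0.25 without 1 array. The indole median ranged from 0.01 to 0.17 and the shared median from 0.11 to 0.26 without 1 array. The cause of these shifts was not tested.

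With the replicate block, 45 genes passed, and among members 0 passed, 10 were higher and 3 lower at an unadjusted p under 0.05. Same-numbered arrays had correlations of deviations of 0.01, 0.05 and 0.07, and unlike-numbered arrays had -0.08 to 0.05. The labels state no pairing, and with so few arrays these values cannot decide whether the numbers pair the samples.

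Of 680 member values under the alternatives, 645 kept their direction and side of the threshold, 10 passed it and 25 turned sign, in 15 members, all of them members with an unadjusted p above 0.05. The dim filters, the variance trend, the unmoderated fit, the replicate block and the 0.10 threshold leave each difference unchanged by construction. Sign changes could therefore arise only in the other alternatives. No member had passed at first, so none could lose that side. The 10 include FMOGS-OX3 and MYB51 in the main fit read at 0.10. Array weights gave -0.031 for FMOGS-OX1 and 0.25 for MYB76, quantile normalization -0.0060 for TGG1, equal medians 0.029 for MYB76, and the table per probe set -0.087 for GTR1 and -0.059 for GTR2. Without 1 array the ranges were -0.0098 to 0.23 for SOT18, -0.085 to 0.39 for FMOGS-OX1, -0.33 to 0.055 for FMOGS-OX2, -0.20 to 0.033 for FMOGS-OX4, -0.20 to 0.38 for MYB76, -0.028 to 0.23 for CYP79B2, -0.041 to 0.20 for MYB34, -0.019 to 0.21 for SUR1, -0.15 to 0.026 for GSTF10, -0.16 to 0.16 for GSTF11, -0.071 to 0.43 for GTR1, -0.0062 to 0.51 for MBP2 and -0.12 to 0.034 for MVP1. Among members that kept their sign, the value moved by over 1.5 times without 1 array in CYP79B3 (0.070 to 0.48), CYP81F4 (0.24 to 0.55), NSP1 (0.17 to 0.67), NSP5 (0.16 to 0.43), TGG1 (0.049 to 0.17), UGT74C1 (0.10 to 0.29), SOT16 (0.15 to 0.34), UGT74B1 (0.039 to 0.26), GGP1 (0.23 to 0.60), GTR2 (0.081 to 0.50), MYB122 (0.020 to 0.49), IGMT1 (0.18 to 0.57), IGMT2 (-1.21 to -0.56), CYP81F1 (-0.42 to -0.0097), CYP81F3 (-0.32 to -0.17), AOP3 (-0.49 to -0.19) and PEN2 (-0.29 to -0.020). PIP1;2 passed in 14 of 15 alternatives that hold it and not in the unmoderated fit (adjusted p = 0.103). MAM1 passed in 7 of 15. In both counts, 1 of the 15 is the main fit read at 0.10, which both genes pass by construction. Signal over background is not known for these arrays, which limits what can be said of dim genes such as IGMT1, MYB122 and AOP3. The same holds for the wild type values of MBP1.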
